A study of Mus musculus with 13 samples.

Results

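The junctions described here are joins between a fixed DNA break at mouse c-myc, the bait, and sequence at most 1000 bp from the most used bait position, base 61818880 of chromosome 15 in the mm9 build. They were chosen by their deposited chromosome and junction position, and 2698 of the 9577 junctions in the 7 c-myc libraries met that rule, out of 16455 junctions in the 13 libraries of the series. Every one of the 2698 carries the gene label Myc in the deposited tables. The share of a library that lies in this window, the distances from the peak, the use of the peak base and the most used positions follow from the rule and are given as descriptions with no test. Tests of strand and of distinct sites count the peak base too, so values without junctions within 10 bp of it are given beside them.

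The series used high-throughput genome-wide translocation sequencing, which reads from a primer beside an I-SceI break into whatever that break was joined to, to compare long-range joining between I-SceI breaks at IgH and c-myc in different cell types. The c-myc libraries are 3 of activated splenic B cells of genotype c-myc25-2xI, treated with anti-CD40 and IL-4, and 4 of SV40-transformed tail fibroblasts of genotype c-myc25xI;RosaI-SceI-GR without activation. B-cell replicates are numbered 14, 36 and 37 and fibroblast replicates 1 to 4, and the labels do not say whether they came from separate animals or cultures, so p-values measure only the spread between these libraries. Cell type, transformation, activation and genotype, including the I-SceI-GR allele named for fibroblasts only, all differ between the groups and cannot be told apart.

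I-SceI is a yeast homing endonuclease with a long recognition site that is rare in mammalian genomes, so a cassette carrying such sites gives a break at a known place. The broken ends are trimmed to varying extents and joined, mostly by non-homologous end joining, which needs little or no shared sequence, or by alternative end joining, which more often uses short stretches shared by both ends (microhomology). A join that restores the site can be cut again, whereas trimmed joins, joins with added bases and joins to another break remain. Myc encodes a transcription factor of growth and proliferation, and its locus is the translocation partner of the immunoglobulin heavy chain locus in mouse plasmacytomas.

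The sequence on either side of the cassette is shown first because all positions below refer to it. Letters come from the deposited prey alignments, and capitals mark TCTAGA on the right and GGCC on the left. The peak base is the first letter of the right flank, and the left flank ends where single-block alignments stop.
Right flank, chr15:61818880-61819053, + strand: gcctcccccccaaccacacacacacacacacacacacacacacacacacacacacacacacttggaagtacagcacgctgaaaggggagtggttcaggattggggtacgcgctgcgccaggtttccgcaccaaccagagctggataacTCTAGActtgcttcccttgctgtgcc
Left flank, chr15:61818751-61818850, + strand: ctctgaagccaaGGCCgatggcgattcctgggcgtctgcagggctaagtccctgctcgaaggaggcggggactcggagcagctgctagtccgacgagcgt
Between them lie 29 bases, 61818851 to 61818879, that no single-block alignment covered. The 9 lines that touch this stretch are all alignments in more than 1 block.

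The windows held 1070, 752 and 264 junctions in B-cell replicates 14, 36 and 37, and 192, 175, 137 and 108 in fibroblast replicates 1 to 4. These were 36.7%, 26.4% and 30.1% of the B-cell libraries, of 2918, 2850 and 878 junctions, and 19.6%, 22.8%, 22.1% and 19.2% of the fibroblast libraries, of 980, 769, 620 and 562. The same 2 kb thus took a larger share in every B-cell library than in every fibroblast library. At the edge of the window, B-cell replicates 14, 36 and 37 had 141, 18 and 8 junctions 950 to 1000 bp away and 37, 11 and 2 at 1000 to 1050 bp, so most came from replicate 14. The fibroblasts together had 21 and 11.

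B-cell replicate 14 stands apart in its prey fragments. Among junctions whose read went on for at least 10 bases beyond the prey, 87.9% of 721 ended in it after the GG of a GGCC, the sequence recognised by HaeIII, which leaves blunt ends. In replicates 36 and 37 this was 7.46% of 523 and 11.8% of 237, and in fibroblasts 0.637% of 157 in replicate 1 and 0 of 160, 126 and 98 in the others, which allows up to 1.88%, 2.38% and 3.06%. The labels state sonication for all libraries. Of the 39 and 28 such lines in replicates 36 and 37, 24 and 13 shared position, strand and far end with a line of replicate 14. The far end used most in replicate 14, by 242 of its 1070 lines, is shown with its GGCC in capitals and the prey ending at the second G.
Far end, chr15:61819508-61819547, + strand: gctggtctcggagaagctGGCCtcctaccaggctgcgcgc

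Reads also differed in length. The median read of the members had 201, 251 and 267 bases in the B-cell libraries and 317.5, 305, 325 and 342 in the fibroblast libraries, so a long stretch between bait and prey had more room in fibroblasts. Alignments in more than 1 block made up 6.82% to 9.85% of the members in B cells and 15.6% to 24.1% in fibroblasts. Where replicate 14 or read length moved a result, the value without that library or in reads of 200 to 300 bases stands beside it below.

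Most junctions in both cell types lay to the right of the cassette and were read away from the break. Right of the peak on the + strand lay 859, 574 and 200 junctions in B cells and 134, 120, 85 and 78 in fibroblasts. Left of the cassette on the - strand, also read away from the break, lay 163, 126 and 51 in B cells and 32, 31, 31 and 19 in fibroblasts. Junctions read toward the break were few, with 19, 13 and 3 on the left + strand and 29, 36 and 10 on the right - strand in B cells. Fibroblasts had 10, 11, 12 and 6 on the left + strand and 13, 12, 9 and 5 on the right - strand. Right of the peak, + strand junctions made up 94.1% to 96.7% of all in B cells and 90.4% to 94.0% in fibroblasts, and left of it - strand junctions made up 89.6% to 94.4% and 72.1% to 76.2%.

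**Figure D1:**
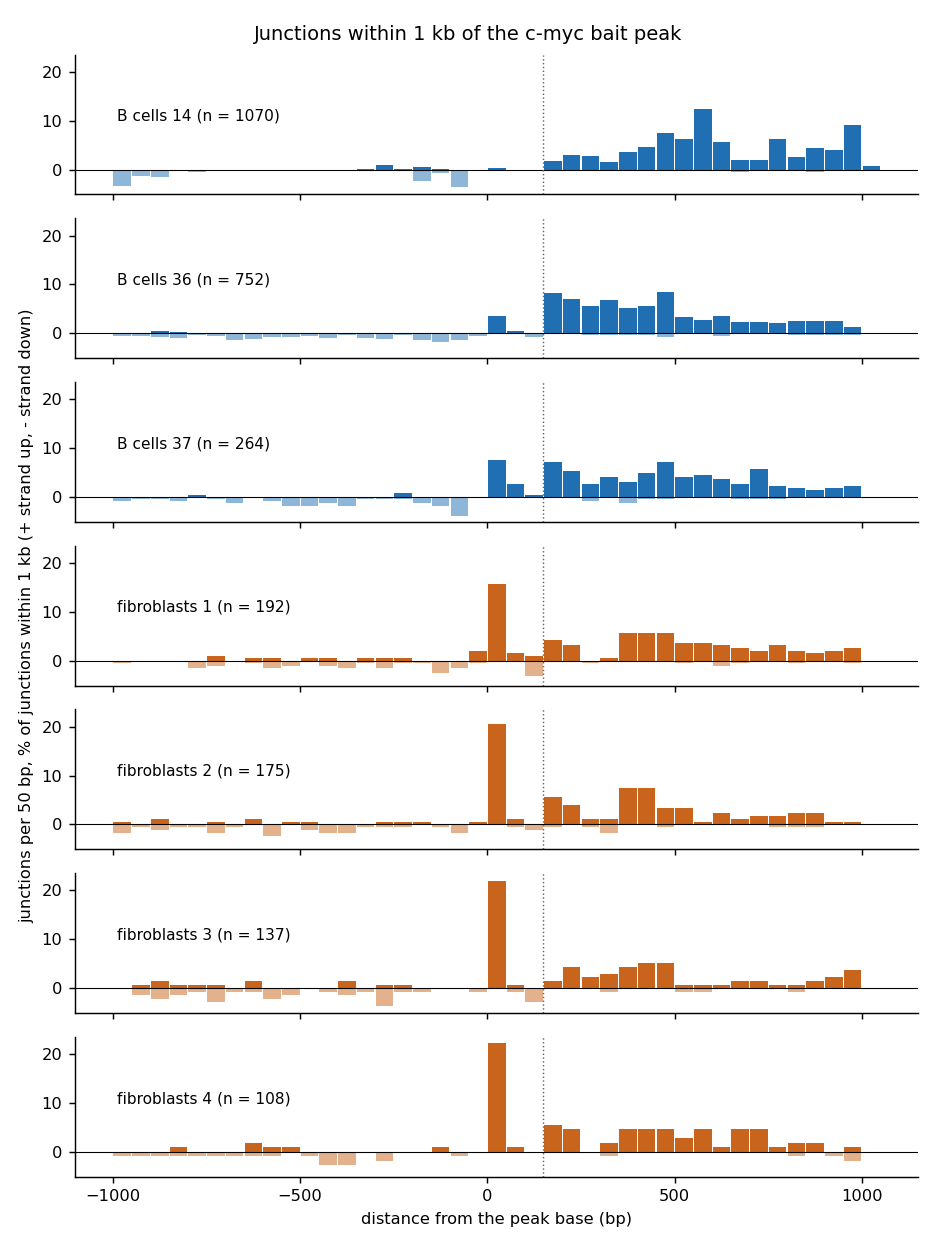
Junctions per 50 bp as percent of the junctions within 1 kb in each library, against distance from the peak base in bp, with + strand bars up and - strand bars down in a paler shade; the dotted line marks TCTAGA. Fibroblast libraries have their tallest bar next to the peak, B-cell replicate 14 has it beyond 500 bp, and past the first bar few + strand junctions lie before the dotted line.

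The + strand share was 82.1% (Wilson interval at 95%, 79.6% to 84.2%) in B-cell replicate 14, 78.2% (75.1% to 81.0%) in replicate 36 and 76.9% (71.4% to 81.6%) in replicate 37. Fibroblast replicates 1 to 4 had 76.6% (70.1% to 82.0%), 75.4% (68.5% to 81.2%), 70.8% (62.7% to 77.8%) and 77.8% (69.1% to 84.6%). The groups overlapped, since fibroblast replicate 4 lay above B-cell replicate 37. The means were 79.0% ± 2.69 (SD, n = 3) and 75.1% ± 3.05 (SD, n = 4), and the difference of 3.90 percentage points did not pass the two-sided exact permutation test (p = 0.114, adjusted p = 0.171 over 6 tests; the smallest p that 3 against 4 libraries allow is 0.0571). It was -1.94 points at most 500 bp from the peak and 1.48 without lines that had cassette sequence after the prey, and 8.57 without junctions within 10 bp of the peak. In reads of 200 to 300 bases it was 7.59 points, without overlap of the groups (exact permutation p = 0.0571), and without replicate 14 it was 2.40. Intervals and other counting limits here cover counting error only, because the reads come from PCR without molecular identifiers.

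Farther out, from 1 to 10 kb, 1660 junctions of the same libraries gave lower + strand shares in 6 of 7 libraries. They were 77.7%, 70.1% and 76.9% in B cells and 61.2%, 59.2%, 63.5% and 60.3% in fibroblasts. The share within 1 kb exceeded that farther out by 4.37 and 8.14 points in B-cell replicates 14 and 36, differed by -0.03 in replicate 37, and exceeded it by 15.4, 16.2, 7.29 and 17.5 points in the fibroblasts. The mean of 9.85 points over 7 libraries had an exact two-sided sign-flip permutation p of 0.0312 and an adjusted p of 0.171, so it did not pass after adjustment. Its unadjusted p rose above 0.05 in 11 of 19 alternatives, 6 of them among the 7 that leave out 1 library, where 6 libraries allow no p below 0.0312 and the step was 8.57 to 11.5 points. The step was 4.15 points with a limit of 2000 bp and 5.23 with 1 junction per position and strand. It was 6.55 without junctions within 10 bp of the peak and 5.40 without those from the peak to TCTAGA. Whether the step differs between cell types was tested directly, and B cells minus fibroblasts was -9.96 points (exact permutation p = 0.114).

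**Figure D2:**
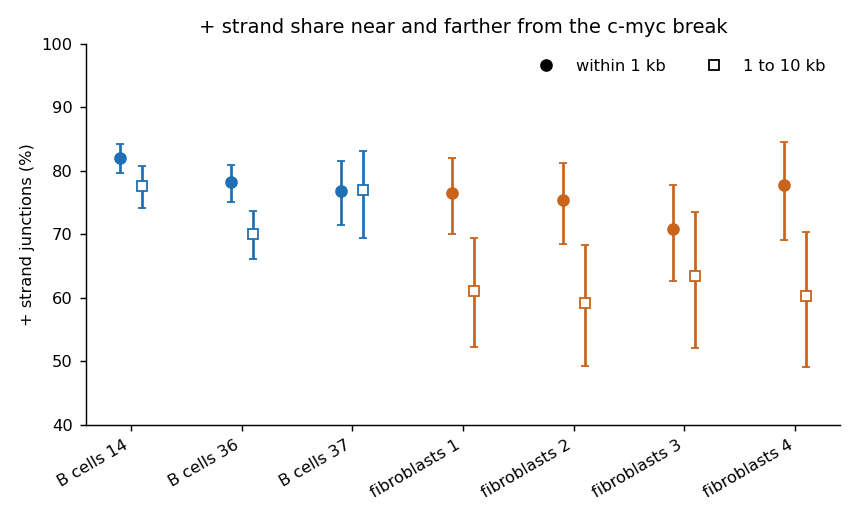
Percent of + strand junctions in each library within 1 kb (filled circles) and from 1 to 10 kb (open squares), with Wilson intervals at 95% as bars and the axis starting at 40%. The fibroblast squares lie between 59.2% and 63.5% and their circles between 70.8% and 77.8%.

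The peak base itself was used on the + strand in every library, and more often in fibroblasts. It began the prey in 2, 7 and 13 junctions of B-cell replicates 14, 36 and 37, which is 0.187% (0.0513% to 0.679%), 0.931% (0.452% to 1.91%) and 4.92% (2.90% to 8.24%) of the members. In fibroblasts it began 16, 22, 25 and 18, which is 8.33% (5.19% to 13.1%), 12.6% (8.45% to 18.3%), 18.2% (12.7% to 25.6%) and 16.7% (10.8% to 24.8%). No library had a - strand junction there, and 0 of 2698 allows up to 0.111%. At the last covered base on the left, 61818850, the only - strand junction was 1 of fibroblast replicate 1. The peak base was picked as the most used start and 61818850 as the limit of coverage, so the contrast between them is no result.

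In every library all junctions at the peak base had a different read before the prey, while some shared their far end. Distinct far ends numbered 2, 6 and 8 in B cells and 9, 13, 16 and 16 in fibroblasts. Of the reads before the prey, 100 of 103 held cassette sequence. The words that mark it were taken from 40 of these same lines, so this count is largely set in advance. Where B-cell replicates 36 and 37 and the fibroblasts reached the peak base, the reads passed a median of 4 and 3, and of 2.5, 3, 3 and 4, copies of the inner 10 bases of the I-SceI site, and up to 8. In replicate 14 both reads had none. By these copies, reads at the peak base outside replicate 14 mostly passed from cassette sequence into the first base of the right flank. In reads of 200 to 300 bases the share was lower than over all reads in 6 libraries and higher, at 0.365%, in replicate 14. In such reads the peak base took 0% (0 of 487, which allows up to 0.616%) to 1.35% in B cells and 2.47% to 6.82% in fibroblasts.

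To the right of the peak there was a gap in the + strand junctions. From 11 bp after the peak to TCTAGA, which lies at 61819028 to 61819033 and is the recognition sequence of XbaI, B cells had 0, 14 and 12 junctions and fibroblasts 13, 7, 5 and 3. In the stretch of the same length just after TCTAGA they had 78, 149 and 37 and 14, 19, 11 and 11. Of 189 + strand junctions that began between the peak and TCTAGA, 2 were read across it, both in fibroblast replicate 1. Of the 189, 135 began within 10 bp of the peak, and 1 of the other 54 was read across. Junctions that began over the same stretch before 6 other points, 250 to 750 bp from the peak, served for comparison. These stretches overlapped, so a junction could count for more than 1 point. They were read across in 21.4% of 709 such counts in replicate 14 and in 63.8% to 75.5% in the other 6 libraries. Prey that started before TCTAGA thus nearly always ended before it, and what sets this was not tested.

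The longest reading frame opened by an ATG in the right flank runs from 61819077 to 61819907, over 831 bases, in the letters of these alignments. Of the + strand junctions right of the peak, 97.6%, 84.3% and 77.5% lay past that ATG in B cells and 68.7%, 60.0%, 61.2% and 60.3% in fibroblasts. Median distances from the peak on this side were 585, 412.5 and 450 bp in B cells and 419.5, 355, 339 and 383 bp in fibroblasts. Both measures take in the + strand junctions within 10 bp of the peak, 3, 15 and 16 in B cells and 22, 31, 26 and 22 in fibroblasts. All of these lie before the ATG, and leaving them out raises the fibroblast shares more than the B-cell shares. The contrast in these shares and medians is therefore no result apart from the peak. Left - strand junctions had medians of 640, 413 and 358 bp and of 329, 521, 548 and 448 bp from the last covered base, with the groups overlapping.

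Away from the peak base no position dominated. More than 10 bp from it, the most used position and strand held 7, 6 and 4 junctions in B cells and 4, 3, 2 and 3 in fibroblasts. After the peak base, the most used positions in B cells by mean share, all on the + strand, were 61819352 with 1, 2 and 4 junctions and 61819045, 61819202 and 61819281 with 1, 2 and 3 each. Fibroblasts, with fewer members, had 0, 1, 0 and 1 junctions there in all. In fibroblasts they were 61818884, 61819271, 61818881 and 61819292, with 7, 6, 6 and 5 junctions, and B cells had 4, 5, 4 and 3 there. Of these, 61818884 and 61818881 lie beside the peak base. The positions were picked by their use in 1 group, so a lower count in the other is no result.

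The sites below show how such joins look at the base level. Each is 20 bases on the + strand with the prey reading to the right, and capitals mark the bases that the prey shared with the end of the bait in the most common form of the join. They were taken from the most used positions because shared bases can be seen there in more than 1 line.
B-cell site 61819202, chr15:61819194-61819213: CTGCAGCCgcccgcgcccag
B-cell site 61819281, chr15:61819276-61819295: CCGGGctctgctctccatcc
Fibroblast site 61819271, chr15:61819271-61819290: CCGctccgggctctgctctc
At 61819202, 2 of 3 junctions with shared bases had all 8 bases in common with the bait end. All 3 were B-cell junctions. At 61819281, 2 of 4 had 5, both in B cells, and 1 of the 4 came from fibroblasts. At 61819271, 3 of 5 had 3, and these were the 3 fibroblast junctions with shared bases there. A site is named by the deposited first base of the prey. The shared bases lie just before it at the B-cell sites, where the prey alignment was extended to the left, and start at it at 61819271.

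Repeated use of positions grew with depth, so libraries were set to the 108 junctions of the smallest. The expected number of distinct position-and-strand pairs was then 101, 102 and 98.0 in B cells and 93.5, 89.4, 83.7 and 84 in fibroblasts. Every B-cell library lay above every fibroblast library, by 12.8 sites on average (exact two-sided permutation p = 0.0571, the smallest possible, adjusted p = 0.171). This count takes in the peak base, which the rule used, so its p-value says nothing of sites apart from that base. At a depth of 86, the difference was 10.1 sites with all members. Without junctions within 10 bp of the peak it was 0.678, with overlapping groups (exact permutation p = 0.229). It was 4.01 with single-block prey at a depth of 82, still without overlap, and 0.489 with overlap in reads of 200 to 300 bases at a depth of 39. Without replicate 14 the difference was 12.4 (exact permutation p = 0.133, and 2 against 4 libraries allow none lower).

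**Figure D3:**
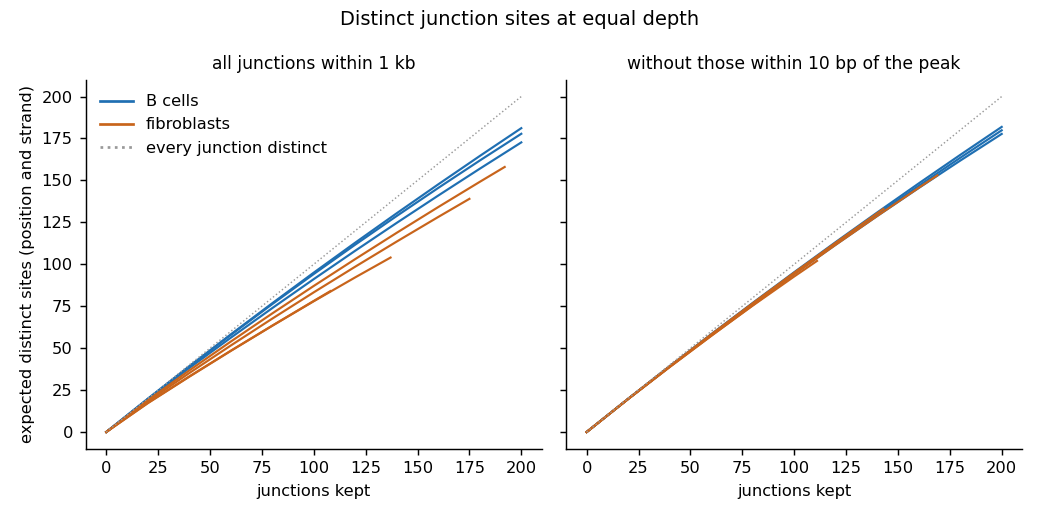
Expected number of distinct sites (position and strand) against the number of junctions kept, up to 200, for each of 3 B-cell and 4 fibroblast libraries; the dotted line is every junction at its own site. On the left, with all junctions, fibroblast curves run below B-cell curves; on the right, without junctions within 10 bp of the peak, the curves run together.

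Before thinning, 65.0%, 46.8% and 26.5% of B-cell members and 26.6%, 28.6%, 31.4% and 26.9% of fibroblast members had the position and strand of at least 1 other member there. With the far end of the prey included these shares were 51.2%, 9.57% and 7.95% and 11.5%, 10.9%, 16.1% and 8.33%. Replicate 14, where far ends fall on GGCC, was the highest on both. Over all libraries there were 1229 position-and-strand pairs. Of these 459 occurred in at least 2 libraries, 211 in both cell types, and 1, the peak base, in all 7. When the far end was required too, 72 of 2167 combinations recurred between libraries.

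The bait ends differed as well. Of junctions whose bait and prey ends could both be placed, 1899 in B cells and 483 in fibroblasts, 1.01%, 1.48% and 0.851% in B cells lacked more than 40 bases of the bait before the first cut. In fibroblasts 10.1%, 15.8%, 12.5% and 8.86% did. In reads of 200 to 300 bases the ranges were 0.758% to 2.04% and 7.32% to 18.3%, so the groups did not overlap at a matched length. Read past the first cut, by at least 1 base, were 8.81%, 26.6% and 25.1% in B cells and 39.6%, 27.8%, 42.9% and 50.6% in fibroblasts, where bases shared with the prey can add to the count. In reads of 200 to 300 bases these shares were 16.4% to 21% and 25% to 40.6%, with 16.4% in replicate 14. Ends exactly at the cut were rare, at 2.43%, 6.80% and 5.96% and at 3.14%, 3.76%, 6.25% and 0%, where 0 of 79 allows up to 3.80%.

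**Figure D4:**
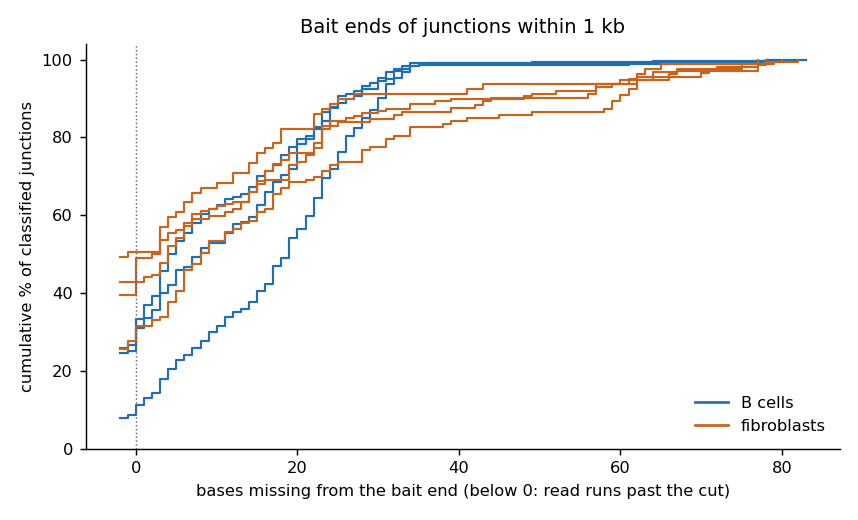
Cumulative percent of classified junctions against the number of bases missing from the bait end, per library; values below 0 are reads that run past the first cut. B-cell curves are nearly complete before 40 bases, while fibroblast curves rise until 77 to 82.

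Among the same junctions, cassette sequence lay between bait and prey in 11.0%, 35.8% and 31.5% in B cells and in 42.8%, 27.1%, 42.9% and 40.5% in fibroblasts. The words that mark it came from junctions at the peak base, 9 in B cells and 31 in fibroblasts. The groups overlapped, with means of 26.1% ± 13.2 (SD, n = 3) and 38.3% ± 7.57 (SD, n = 4) and a difference of -12.2 points (exact permutation p = 0.171, adjusted p = 0.171). The overlap rested on fibroblast replicate 2, without which the difference was -15.9 points with no overlap (exact permutation p = 0.1, the lowest that 3 against 3 allow). It was -4.66 without replicate 14 and 0.317 in reads of 200 to 300 bases.

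Joins without cassette sequence had at least 1 base shared by both ends, counted here as microhomology, in more than 50% of cases in both cell types. The share that unrelated ends would give by chance was not tested. The shares were 56.3%, 52.5% and 53.4% in B cells and 56.0%, 60.8%, 57.8% and 59.6% in fibroblasts, with a median of 2 shared bases in 5 libraries and 3 in fibroblast replicates 3 and 4. B-cell replicate 14 lay above fibroblast replicate 1, and the means of 54.1% ± 1.98 (SD, n = 3) and 58.6% ± 2.09 (SD, n = 4) differed by -4.48 points (exact permutation p = 0.114, adjusted p = 0.171). It was -8.29 points in reads of 200 to 300 bases and -7.08 with at least 50 aligned prey bases, each without overlap of the groups (exact permutation p = 0.0571). At most 500 bp from the peak it was -0.581, with 1 junction per position and strand -2.41, and with 1 per position, strand and far end -1.63. Without replicate 14 it was -5.59 points, also without overlap.

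Bases between the placed ends, called inserted here, were found in 36.2%, 41.5% and 40.4% of these joins in B cells and in 36.3%, 34.0%, 37.5% and 34.0% in fibroblasts. The bait was rebuilt only to the first I-SceI core, so inserted bases can include cassette stretches too short to hold a 12-base word. The difference of means was 3.88 points (exact permutation p = 0.171, adjusted p = 0.171). It was 8.10 in reads of 200 to 300 bases and 7.27 with at least 50 aligned prey bases, each without overlap of the groups (exact permutation p = 0.0571). At most 500 bp from the peak it was -3.22, with 1 junction per position and strand 1.49, and with 1 per position, strand and far end 0.803. Without replicate 14 it was 5.47 points, also without overlap. The median insertion was 3, 8 and 8 bases in B cells and 5, 5, 7 and 9.5 in fibroblasts. Direct joins, with neither shared nor added bases, made up the remaining 5.99% to 7.51% and 4.69% to 7.69%.

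In some reads cassette sequence came after the prey, and the prey of such a line is called a piece here. Where in the flank a piece ended was not checked. Prey read toward the break that ran on into the adjoining cassette is therefore counted too. Such lines numbered 3, 4 and 6 in B cells, or 0.280%, 0.532% and 2.27%, and 12, 17, 23 and 10 in fibroblasts, or 6.25%, 9.71%, 16.8% and 9.26%. Every fibroblast library lay above every B-cell library. The pieces had a median length of 83 bases, from 30 to 254, in the 62 fibroblast lines and of 41 bases, from 30 to 168, in the 13 B-cell lines. A read must be long enough to go on past the piece. At 200 to 300 bases the ranges were 0% (again 0 of 487, up to 0.616%) to 2.70% and 2.56% to 13.6%, which overlapped.

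In fibroblasts these pieces held more than 50% of the prey that was read toward the break. That orientation made up 4.49% (3.40% to 5.90%), 6.52% (4.96% to 8.51%) and 4.92% (2.90% to 8.24%) in B cells and 12.0% (8.12% to 17.3%), 13.1% (8.92% to 18.9%), 15.3% (10.2% to 22.3%) and 10.2% (5.78% to 17.3%) in fibroblasts, without overlap of the libraries. In reads of 200 to 300 bases the ranges were 4.05% to 4.93% and 7.69% to 13.6%. Of the 62 fibroblast pieces, 41 (66.1%) were read toward the break, 20 on the left and 21 on the right, against 6.73% of the other 550 fibroblast members. Prey in this orientation can meet the cassette simply by reading on. This contrast, and the shares without the pieces, can thus be partly set by the definition. Without the pieces the shares were 4.40%, 6.42% and 5.04% in B cells and 9.44%, 6.96%, 4.39% and 4.08% in fibroblasts, and the groups overlapped. In the 13 B-cell pieces 2 were read toward the break.

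**Figure D5:**
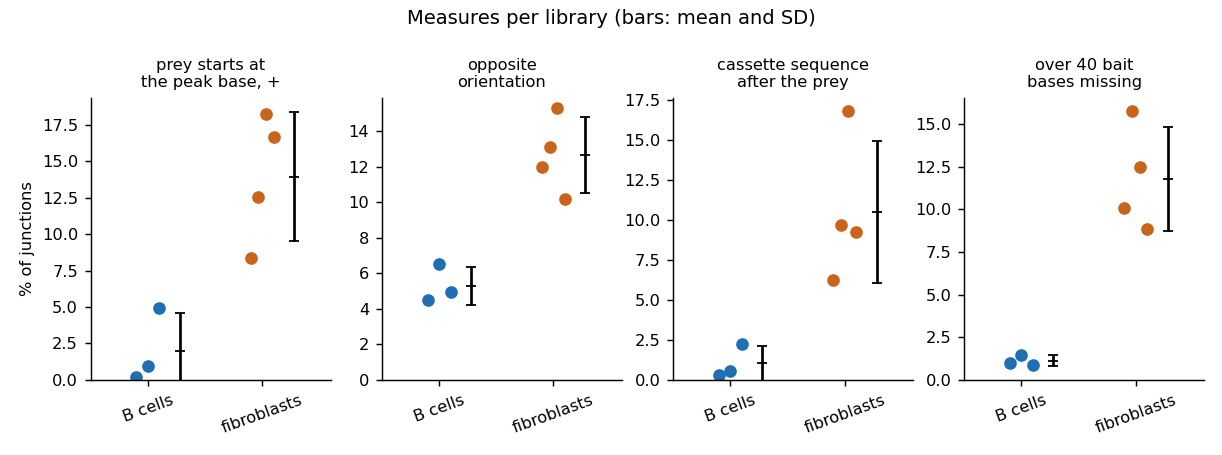
Percent of junctions per library for 4 measures, with points for libraries (B cells blue, n = 3; fibroblasts orange, n = 4) and bars for the mean and SD; each panel has its own axis from 0, and the last uses classified junctions. In all 4 panels the fibroblast points lie above the B-cell points, the nearest being 4.92% and 8.33% at the peak base.

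The same measures around the IgH bait are given as a description of another locus and genotype. The + strand share was 94.1% to 96.2% in 3 libraries of IgH B cells and 93.7% to 95.8% in 3 of IgH T cells. Strand here is that of the chromosome, and the orientation of the IgH bait was not examined. These shares are therefore not set against those at c-myc. The most used site took 7.14% to 9.62% and 1.95% to 4.12% of the junctions there. Both ranges lie inside that of the c-myc libraries, 0.654% in B-cell replicate 14 to 18.2% in fibroblast replicate 3.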

How the data were processed

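Genomic DNA was sonicated and libraries were made by adapter PCR for a MiSeq, per the labels' protocols. Each line of the deposited tables gives a prey position, strand, sequences and an alignment score, per the file headers; the score entered no result. Per the submitters' processing notes the build is mm9, and the aligner is not given in the sources used here.

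Members and measures were chosen with earlier results of these data known. Positions are counted from 1. A local reference of 8103 bases was rebuilt from single-block prey sequences, with 0 conflicts, because no mm9 genome was used here. The bait strand was rebuilt from the reads up to the first I-SceI core. Both ends of a junction were placed where the read held 20 bases of bait before a single-block prey, which left 1899 of 2086 B-cell and 483 of 612 fibroblast members. Cassette sequence was recognised by 120 words of 12 bases found in at least 3 libraries. They came from between bait and prey in the 40 placed + strand junctions at the peak base, 31 of them in fibroblasts. Reverse complements were added, and words that the bait holds were left out. The set of words, the handling of reads whose prey precedes the bait, and the permutation convention were changed after first values had been seen, and the 3 tests of junction structure were added then. Named positions are the peak base on both strands and the 5 position-and-strand pairs with the highest mean share in each group. Shown sites are those of them with shared bases in at least 2 lines of the same form in the group that named them.

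Libraries were compared by two-sided exact permutation or sign-flip tests, with p as double the smaller one-sided value between groups and Benjamini-Hochberg adjustment over 6 tests. Single shares have Wilson intervals at 95%, and a count of 0 allows 3 counts. Depth per library is 562 to 2918 junctions. The placing of ends was tested on simulated data. Python 3.11.15, pandas 2.3.3, numpy 2.4.6, SciPy 1.17.1 and Matplotlib 3.10.9 were used.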

Additional observations from a re-analysis of the deposited data

Results flagged for a closer look

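Of 24 measures checked for a single library far from the other fibroblasts, 1 was found, where chance gives about 1 in 20 for each. Cassette sequence between bait and prey was at 27.1% in fibroblast replicate 2, and the other 3 libraries lay between 40.5% and 42.9%. The gap made up 0.851 of the range, above the critical value for 4 libraries. That library also had the highest share of junctions lacking more than 40 bases of the bait, 15.8%. Without it the difference between B cells and fibroblasts was -15.9 points in place of -12.2, and the groups no longer overlapped. The cause was not tested.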

How the results depend on the processing

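No paired analysis was possible because the B-cell replicates (14, 36 and 37) and the fibroblast replicates (1 to 4) share no number. Over 117 alternatives of the 6 tests, 3 changed direction: the + strand difference at most 500 bp from the peak (-1.94 points), cassette sequence between the ends in reads of 200 to 300 bases (0.317 points) and inserted bases at most 500 bp from the peak (-3.22 points); the cause was not tested. No test passed 0.05 after adjustment in the main form or in any alternative, so keeping its side of the threshold says nothing of stability. The unadjusted p of the + strand step between 1 kb and farther out ran from 0.0156 to 0.266. With 1 library left out, the differences ranged from 2.40 to 4.98 points for the + strand share, 11.5 to 14.8 distinct sites, 8.57 to 11.5 points for the + strand step, -17.0 to -4.66 for cassette sequence, -5.59 to -3.70 for microhomology and 2.82 to 5.47 for inserted bases.

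With the earlier set of cassette words, which the bait partly holds, microhomology was -4.21 points with no overlap of the groups (exact permutation p = 0.0571, adjusted p = 0.171), and cassette sequence -11.7. Counting differences as large in either direction, the convention used first, the p of distinct sites was still 0.0571 by exact permutation and each adjusted p was 0.143. Settings with read length, single-block prey, cassette after the prey, repeated reads, TCTAGA and cassette words were chosen after the data were seen. With p as used in the report, 3 against 4 libraries let no difference between groups, of any size, pass 0.05 (counted in either direction the smallest p is 0.0286), and 108 to 192 members per fibroblast library set the width of single-library intervals.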
